A study of Homo sapiens with 54 samples.

Results

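Untreated SW620 cells were set against the untreated cells of 5 other carcinoma lines, gene by gene, and the genes that set SW620 apart from all 5 were picked out. SW620 was represented by its 3 control libraries in the second of 2 deposited tables, out of 54 libraries in the series. The other side was the mean of 5 control groups in the same table, SW48, NCI-N87, BT-20, BT-474 and MKN-45, with 3 libraries each and every line given equal weight. Of 33119 genes in the table, 15211 passed a minimum on counts and were tested. A gene was called apart when it differed from each of the 5 lines by at least 1 on the log2 scale with an adjusted p under 0.05 each time, always in one direction, and when all 3 SW620 libraries lay beyond all 15 other untreated libraries. This held for 530 genes that were higher in SW620 and 345 that were lower.

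SW620 and SW48 are established colorectal carcinoma lines, NCI-N87 and MKN-45 come from stomach carcinoma, and the breast carcinoma lines are BT-20 and BT-474. The series measured the RNA of these 6 lines with and without kinase inhibitors: trametinib (which blocks MEK) or palbociclib (which blocks CDK4 and CDK6) for SW48 and SW620, and afatinib (which blocks the ERBB receptors) for the other 4. The control cells are labelled only as control, and a vehicle, dose or time is not given in the sources used here. All lines were kept in the same kind of medium, DMEM with fetal bovine serum and antibiotics, and each is a single line, so SW620 stands here for itself and not for a tissue. RNA was read from its 3′ end (Lexogen QuantSeq), so counts are not scaled by gene length.

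SW620 was grown from a lymph node metastasis of a colorectal adenocarcinoma and is known for a truncated APC gene. APC is part of the complex that marks β-catenin for destruction, and without it β-catenin with TCF factors drives WNT target genes such as AXIN2, NKD1 and SP5. Epithelial cells hold together through E-cadherin (CDH1), claudins and desmosomes, under transcription factors such as GRHL2 and OVOL1, and ZEB1 and SNAI2 are repressors that bind E-box motifs in the promoters of epithelial genes.

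The SW620 libraries held 10012099 to 12806042 counts and the 15 other untreated libraries 5106615 to 9580735, so SW620 was the deepest group of the comparison. Levels are given below as CPM (counts scaled to a common library size) after TMM, the trimmed mean of M-values. The summed level of 9 colorectal epithelium markers was 753 to 812 CPM in SW620, nearly all of it EPCAM, with CDX2 at 32.9 CPM, CDX1 at 0 and 4 of the 9 under 1 CPM. Of 7 stomach markers the sum was 122 to 168 CPM, mostly SOX2, and of 8 breast markers 6.50 to 10.6 CPM. Markers of other cells were low: 8 fibroblast markers summed to 17.9 to 23.8 CPM, with LUM at 12.7 CPM, 5 blood markers to 0.413 to 0.941 CPM and 3 endothelial markers to 0.684 to 1.14 CPM. The gene sets used to mark each other line reached at most 0.194% of that line's level in these SW620 libraries. The sets share genes such as AP1M2 and CDH3, which were lower in SW620 than in all 5 lines. A low share in these libraries is therefore no test of their purity. The first table holds another set of SW620 controls, of which controls 1 and 3 held 8.92% and 9.3% of the level of BT-474 marker genes; that set enters only the paragraph on other libraries. In bulk RNA, fewer cells of a type and less RNA per cell cannot be told apart. Whether a group's 3 libraries stem from separate cultures is not stated in the labels. The p-values thus rest on library-to-library spread alone, which may be technical.

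Against the equally weighted mean of the 5 lines, 5640 of 15211 genes (37.1%) were higher in SW620 and 4014 (26.4%) were lower (edgeR quasi-likelihood test, Benjamini-Hochberg adjusted p under 0.05). With edgeR's TMM scaling, the pairwise counts were 4758 genes higher and 4342 lower than in SW48, 5310 and 5014 against NCI-N87, 5484 and 5264 against BT-20, 5205 and 4850 against BT-474, and 4950 and 4488 against MKN-45. The balance between higher and lower genes depended on the scaling: with DESeq2's size factors it was 4784 and 4315 against SW48, 4965 and 5380 against NCI-N87, 5239 and 5544 against BT-20, 4948 and 5148 against BT-474, 4713 and 4745 against MKN-45, and 5359 and 4283 against the mean. The rule that asks for all 5 lines at once left 3.48% of the tested genes as higher and 2.27% as lower. The same rule applied to each of the other lines gave 378 higher and 359 lower genes for SW48, 473 and 185 for NCI-N87, 682 and 356 for BT-20, 583 and 372 for BT-474, and 377 and 348 for MKN-45, so the numbers for SW620 lie within the range of the 6 lines.

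Among the 530 higher genes, the gap to the nearest line had a median of 2.06 on the log2 scale (quartiles 1.34 and 3.31), and 132 genes had a gap of at least 10-fold. Among the 345 lower genes the median gap was 1.68 (quartiles 1.24 and 2.7), with 60 genes at 10-fold or more. Of the higher genes, 187 passed the count minimum only through SW620, and 9 had no count at all in the 5 other lines. All 345 lower genes passed without SW620, and 24 of them had no count in SW620. The nearest line among the higher genes was BT-474 for 124 (23.4%), MKN-45 for 110 (20.8%), NCI-N87 for 107 (20.2%), SW48, the other colorectal line, for 103 (19.4%) and BT-20 for 86 (16.2%). Among the lower genes it was SW48 and MKN-45 for 94 each (27.2%), BT-20 for 58, BT-474 for 57 and NCI-N87 for 42. At the edge of the fold limit, PDE4DIP, CPLX1 and ZNF230 were just inside, at -1.001 to -1.004, and TBC1D16 at 1.01, while EPB41L1 and NSUN7 (-0.998) and WASL and ZDHHC11 (-0.997) were just outside.

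The widest gaps upward belonged to genes that are hardly read in the other lines. FGF3, a fibroblast growth factor of the embryo, was at 174, 146 and 240 CPM in the 3 SW620 libraries and between 0 and 1.11 CPM in the 15 others. It had no count in NCI-N87, BT-20 or MKN-45, which makes it at least 1328-fold, 1508-fold and 1203-fold higher in SW620 (against a floor of 3 counts over the group), and its log2 difference from SW48, the nearest line, was 8.79 ± 0.48 (SE; adjusted p = 5.3e-09). FGF19, an endocrine growth factor of the ileum that restrains bile acid synthesis, was at 326, 292 and 379 CPM, against a highest value of 11.6 CPM in NCI-N87 (log2 difference 5.46 ± 0.47, adjusted p = 5.8e-08). It was at least 3323-fold higher than in SW48 and at least 2119-fold higher than in MKN-45, where it was not counted. The genes lie close together on chromosome 11, FGF19 at chr11:69698238-69704022 and FGF3 at chr11:69809968-69819416 (RefSeq, GRCh38.p14). CCND1, the cyclin D1 gene beside them, was chosen for mention after its values were seen: at 296 CPM in SW620 it lay within the range of the other libraries, 209 to 815 CPM.

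CLDN11, a claudin of myelin and of Sertoli cells, stood at 252, 246 and 255 CPM with no other library above 2.24 CPM (log2 difference from NCI-N87 7.62 ± 0.32, adjusted p = 3.4e-13). FOXL2, a forkhead factor of the ovary, was at 76.1, 66.6 and 101 CPM and at most 1.25 CPM elsewhere. The SW620 libraries lay close together for CLDN11 and spread more for FOXL2, and for both they were far from the rest.

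SERPINF1, a secreted serpin that restrains vessel growth, was read at 151, 156 and 129 CPM against at most 2.60 CPM. SPN, the leukocyte surface protein CD43, was at 103, 94.9 and 107 CPM against at most 1.91 CPM, although the 5 blood markers together stayed under 1 CPM. SIT1, a lymphocyte signalling adaptor, was at 50.3, 46.8 and 51.1 CPM, with 1 count in SW48 and 1 in BT-474 and none in the other 3 lines (ratio to BT-474 1066, 95% counting interval 191 to 42130). Counting intervals and floors cover counting error only, since reads without molecular identifiers are not independent molecules.

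Among the 20 widest upward gaps were also ADAMTSL2, PHYHIPL, CALB1, KRT40, GFRA3, NKD1, MYT1, MAP7D2, HBE1, DIO3, SNAR-I and PRSS2. GFRA3, the co-receptor for artemin, was at 48.4, 48.5 and 54.3 CPM, and DIO3, the deiodinase that inactivates thyroid hormone, at 76.5, 55.6 and 75.03 CPM against at most 1.30 CPM. HBE1, the embryonic ε-globin, was at 24.1, 22.7 and 28.3 CPM against at most 0.719 CPM. MAP7D2, a microtubule-binding protein encoded on the X chromosome, was at 93.3, 92.2 and 80.2 CPM against at most 3.28 CPM. SNAR-I and PRSS2 have near-identical copies in the genome, and their counts are uncertain for that reason. PHYHIPL and MYT1 missed the threshold in DESeq2 (largest adjusted p 0.063 for each).

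Epithelial genes led the genes that were lower in SW620. Of 37 tested genes for cell junctions and epithelial identity, 10 were lower than in all 5 lines and none was higher, against 2.27% and 3.48% of all genes. Against the mean of the lines, 30 of the 37 were lower and 5 higher, beside 26.4% and 37.1% of all genes. The list's median difference was -1.07 on the log2 scale beside 0.01 for all genes tested. The 10 were CDH1, CDH3, CLDN7, DSC2, GRHL2, OVOL1, RAB25, PRSS8, MAL2 and AP1M2.

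RefSeq promoters were at hand for 4 of these 10 genes, and 3 of the 4 hold the E-box CACCTG, the motif bound by ZEB1 and SNAI2, on one strand or the other within the 250 bases before the start. The stretches around the motif are printed because these genes were among those lower than in all lines. Each runs 5′ to 3′ on the gene's own strand with the motif in capitals (GRCh38.p14), and CAGGTG is the same motif read from the opposite strand. AP1M2 holds 3 copies (minus strand, chr19:10587313-10587399), RAB25 holds 1 (plus strand, chr1:156061089-156061154) and DSC2 holds 1 (minus strand, chr18:31102542-31102607).
AP1M2: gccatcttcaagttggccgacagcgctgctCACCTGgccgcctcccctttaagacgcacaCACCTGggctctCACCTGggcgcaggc
RAB25: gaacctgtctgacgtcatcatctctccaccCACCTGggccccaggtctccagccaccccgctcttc
DSC2: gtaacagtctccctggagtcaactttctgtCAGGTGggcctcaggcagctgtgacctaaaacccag

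The motif is common, so these matches are a description and not a site of binding. It stood in 16.5% of the 10590 tested genes with a promoter in the table, in 58 of 336 genes higher than in all lines (17.3%) and in 52 of 239 lower genes (21.8%). AACCGGTT, the core bound by GRHL2, stood in 0.104% of all promoters and in none of either group.

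AP1M2, the epithelial subunit of the clathrin adaptor that sorts proteins to the basolateral membrane, was at 0.620, 1.11 and 0.770 CPM in SW620 and at 54.5 to 160 CPM elsewhere (log2 difference from BT-20 -6.22 ± 0.26, adjusted p = 1.7e-13). RAB25, a small GTPase of epithelial membrane recycling, had 2 counts in all 3 SW620 libraries together, against 30.7 to 165 CPM in the others, which is 579-fold lower than in BT-474 (95% counting interval 160 to 4786). MAL2, which carries proteins to the apical membrane, was at 0.413, 0.222 and 0.171 CPM against 155 to 499 CPM (log2 difference from BT-20 -9.26 ± 0.22, adjusted p = 1.7e-16). These 3 genes of polarised membrane traffic were close to absent in SW620 and present in every other library.

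The adhesion genes were lower by varying amounts. CDH1 was at 53.3, 48.2 and 45.6 CPM, clearly counted, but below every other library (194 to 741 CPM; log2 difference from MKN-45 -2.34 ± 0.17, adjusted p = 6.3e-10). CDH3, the P-cadherin gene, was at 0.310, 0.776 and 1.20 CPM against 19.4 to 254 CPM. CLDN7, a tight junction claudin, was at 16.6 ± 1.66 CPM (SD, n = 3) against 82.1 to 388 CPM, and DSC2, a desmosomal cadherin, at 0.605 ± 0.157 CPM (SD, n = 3) against 11.5 to 138 CPM. The transcription factor GRHL2 had 4 counts in SW620 (0.207, 0.222 and 0 CPM) and 18.8 to 78.1 CPM in the others (log2 difference from SW48 -7.23 ± 0.32, adjusted p = 1.0e-12).

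Other epithelial features were kept. EPCAM, an adhesion molecule that marks epithelial carcinoma cells, was at 659, 718 and 659 CPM, inside the range of the other libraries (277 to 895 CPM). Of 14 keratins tested, none was apart in either direction, beside 3.48% of all genes higher and 2.27% lower. Against the mean of the lines 7 were higher and 5 lower, beside 37.1% and 26.4% of all genes. KRT8 was at 871, 767 and 808 CPM (others 255 to 1023 CPM), KRT18 at 2756, 3006 and 2183 CPM (others 1015 to 2698 CPM) and KRT19 at 840, 783 and 919 CPM (others 555 to 2995 CPM), so the libraries overlapped for all 3 of these simple epithelial keratins.

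**Figure D1:**
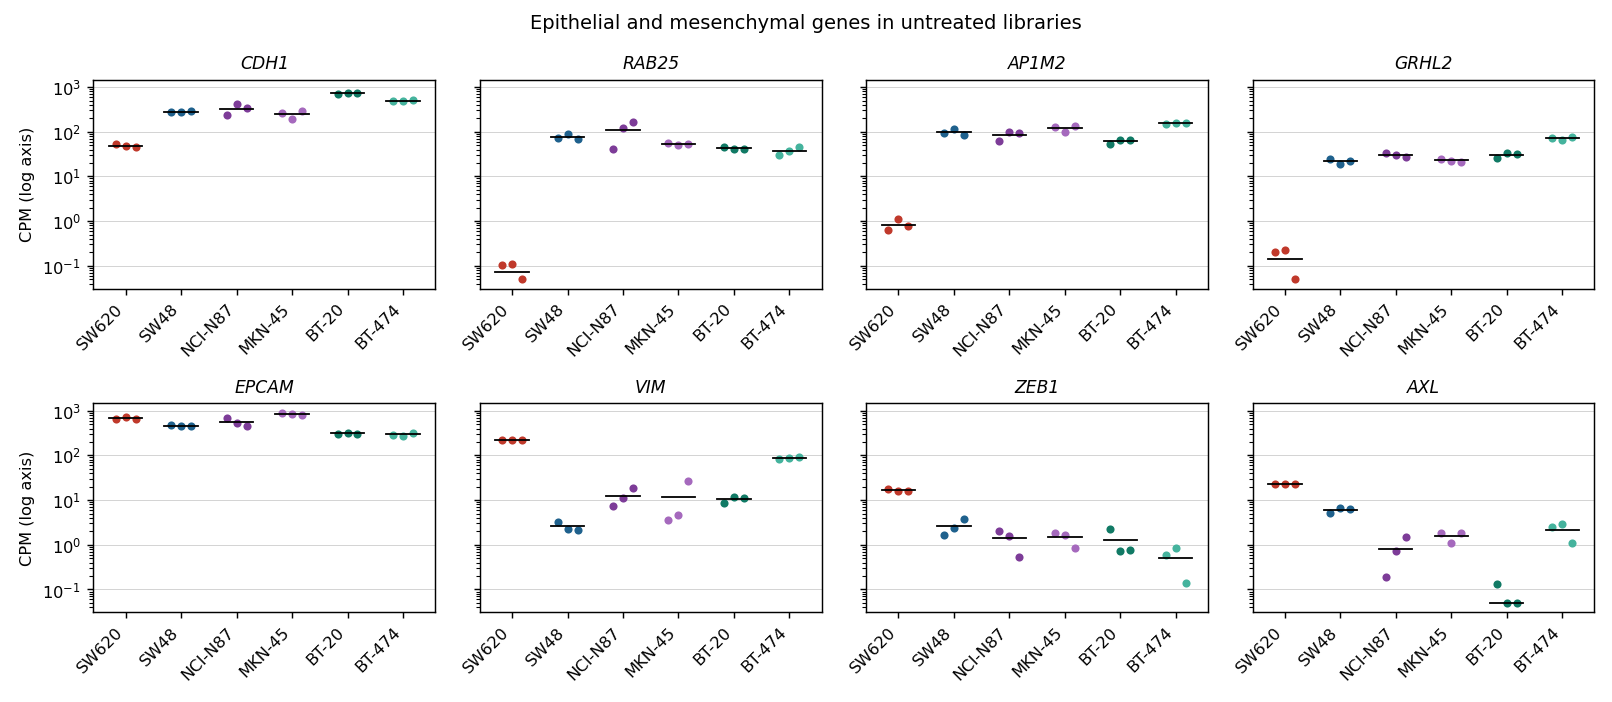
CPM on a log axis for 8 genes in the 3 untreated libraries of each of 6 lines; points are libraries, the black line is the group mean, and values under 0.05 CPM, 0 included, are drawn at 0.05. CDH1, RAB25, AP1M2 and GRHL2 are lowest in SW620, VIM, ZEB1 and AXL are highest there, and EPCAM overlaps with the other lines.

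Some mesenchymal genes stood on the other side. Of 23 tested, 6 were higher than in all lines and none lower: VIM, ZEB1, SNAI2, AXL, TGFBI and LUM. Over all genes, 3.48% were higher than in all lines and 2.27% lower. Against the mean, 9 were higher and 2 lower, beside 37.1% and 26.4% of all genes. The list's median was -0.06, so the list did not move as a whole. SNAI2 passed the count minimum only through SW620.

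VIM, the intermediate filament of mesenchymal cells, was at 224, 224 and 222 CPM in SW620 and at 2.13 to 92.9 CPM elsewhere, with BT-474 nearest (log2 difference 1.34 ± 0.35, adjusted p = 0.0026). ZEB1 was at 18.2, 15.7 and 15.9 CPM against 0.137 to 3.75 CPM (log2 difference from SW48 2.67 ± 0.37, adjusted p = 4.6e-06), and SNAI2 was at 9.09, 7.20 and 6.42 CPM against at most 2.17 CPM. AXL, a receptor tyrosine kinase, was at 22.5, 22.8 and 23.0 CPM against at most 6.65 CPM. TGFBI, a matrix protein induced by TGF-β, was at 106, 112 and 103 CPM against at most 20.05 CPM. LUM, a matrix proteoglycan that also marks fibroblasts, was at 11.6, 14.3 and 12.1 CPM against at most 4.66 CPM, and the 8 fibroblast markers summed to 17.9 to 23.8 CPM in SW620 beside 14.2 to 14.5 CPM in SW48 and 36.2 to 41.6 CPM in BT-20. The part of other cells in these levels was not tested.

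Several of the lower genes outside the epithelial list were nearly silent too. TMED3, a cargo receptor between the endoplasmic reticulum and the Golgi, had 1 count in SW620 against 25.2 to 256 CPM elsewhere (1640-fold lower than in BT-474, 95% counting interval 294 to 64850). MTUS1, a microtubule-associated protein, had 3 counts against 20.4 to 266 CPM (219.5-fold lower than in BT-474, 95% counting interval 74.6 to 1068). NDRG1, a gene induced by hypoxia and stress, was at 2.17, 1.44 and 1.80 CPM against 102 to 559 CPM (log2 difference from BT-20 -5.82 ± 0.47, adjusted p = 2.4e-09). The same pattern of values near or under 2 CPM in SW620, with no overlap with the other lines, held for TMEM30B, C6orf132, NFIB, MYH14, TFAP2A, TMEM159 and RAB3D, which complete the 15 widest downward gaps. NFIB and TFAP2A, a pair of transcription factors, were at 0.523 ± 0.423 and 1.34 ± 0.505 CPM (SD, n = 3) against at least 27.2 and 36.3 CPM elsewhere.

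WNT target and stem cell genes were the list with the largest count of members higher than in all lines. Of 22 tested, 7 were apart upward, NKD1, SP5, NOTUM, ASCL2, APCDD1, SMOC2 and TDGF1, and 1 downward, CD44. Among all genes, 3.48% were apart upward and 2.27% downward. Against the mean, 18 were higher and 2 lower, beside 37.1% and 26.4% of all genes. The list median was 1.99 on the log2 scale beside 0.01 for all genes. TDGF1 passed the count minimum only through SW620.

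The promoter of SP5, the transcription factor that feeds back on WNT targets, holds the TCF motif CTTTGAT, 109 bases before the start (plus strand, chr2:170715198-170715264, GRCh38.p14), and is shown with the motif in capitals since SP5 is among the 7.
SP5: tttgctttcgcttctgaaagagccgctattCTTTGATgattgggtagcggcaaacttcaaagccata
Promoters were at hand for 3 of the 7, and those of APCDD1 and SMOC2 did not hold the motif. The motif, searched on both strands, stood in 1.24% of all 10590 promoters, in 11 of 336 higher genes (3.27%) and in 0 of 239 lower genes. A match is a description and not a site of binding.

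NKD1, which binds Dishevelled and dampens the pathway, was at 1698, 1614 and 1612 CPM in SW620 and at 1.93 to 25.1 CPM in the others, with a median of 12.3 CPM (log2 difference from MKN-45 6.21 ± 0.42, adjusted p = 2.8e-10). SP5 was at 524, 526 and 415 CPM, and the next line was SW48 at 66.6 to 71.3 CPM (log2 difference 2.83 ± 0.46, adjusted p = 3.1e-05). NOTUM, a secreted enzyme that inactivates WNT ligands, was at 626 ± 31.9 CPM (SD, n = 3) against 0 to 218 CPM. The feedback inhibitors NKD1 and NOTUM were therefore both above every other library.

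ASCL2, the transcription factor of crypt stem cells, was at 366 ± 12.8 CPM (SD, n = 3) against 0 to 192 CPM. SMOC2, a secreted crypt-base protein, was at 54.7, 53.5 and 51.8 CPM against at most 5.24 CPM (log2 difference from BT-474 3.49 ± 0.18, adjusted p = 1.6e-09). TDGF1, the Nodal co-receptor known as Cripto, was at 14.9, 21.4 and 13.2 CPM against at most 1.09 CPM. APCDD1, a membrane-bound WNT inhibitor, was at 41.8 ± 3.44 CPM (SD, n = 3) against 0 to 15.8 CPM. CD44, the hyaluronan receptor, went the other way, at 6.42 ± 0.934 CPM (SD, n = 3) against 13.7 to 382 CPM.

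Other well known members of the pathway, AXIN2, LGR5 and MYC, were not highest in SW620. AXIN2 was at 232, 202 and 215 CPM, and SW48 had a mean of 393 CPM. LGR5, the crypt stem cell receptor, was at 12.9, 12.5 and 11.9 CPM beside a mean of 13.4 CPM in MKN-45. MYC was at 169, 169 and 152 CPM beside a mean of 203 CPM in SW48. The lines nearest in level therefore differed from gene to gene.

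**Figure D2:**
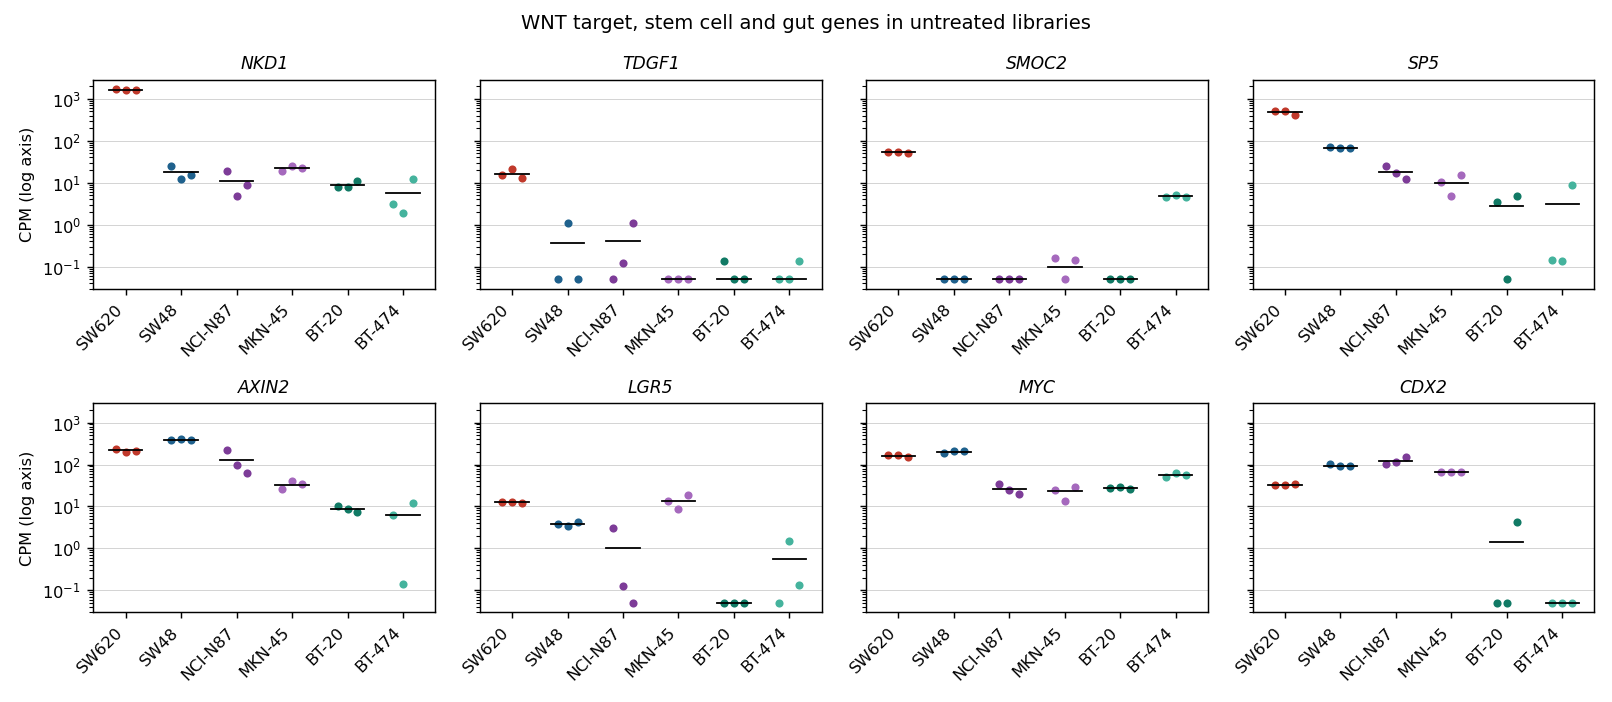
CPM on a log axis for 8 genes in the 3 untreated libraries of each of 6 lines; points are libraries, the black line is the group mean, and values under 0.05 CPM, 0 included, are drawn at 0.05. NKD1, TDGF1, SMOC2 and SP5 are highest in SW620, while AXIN2, LGR5, MYC and CDX2 reach higher means in at least 1 other line.

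Transcription factors of the gut epithelium split. Of 20 tested, SOX2 and FOXA2 were higher than in all lines and FOXA1, KLF4 and GATA6 lower, beside 3.48% and 2.27% of all genes. SOX2, a factor of foregut and stem cells, was at 126, 104 and 158 CPM against at most 8.94 CPM (log2 difference from MKN-45 4.15 ± 0.28, adjusted p = 2.6e-10). FOXA2 was at 360, 335 and 342 CPM, with MKN-45 next at a mean of 158 CPM (log2 difference 1.13 ± 0.19, adjusted p = 3.6e-05), whereas its relative FOXA1 was at 0.310, 0.332 and 0 CPM against 6.46 to 210 CPM (log2 difference from NCI-N87 -5.48 ± 0.45, adjusted p = 2.8e-09). The 2 forkhead factors thus stood at opposite ends. KLF4, a factor of differentiated gut cells, was at 3.20, 4.88 and 3.51 CPM against 8.03 to 70.6 CPM. GATA6 was at 0.828 ± 0.0583 CPM (SD, n = 3) against 1.38 to 23.5 CPM. Its log2 difference from SW48 was -1.82 here but 1.63 in the controls of the first table, where it was not called.

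CDX2, the intestinal master factor, was present in SW620 at 31.6, 32.5 and 34.7 CPM, below SW48 (mean 93.9 CPM), NCI-N87 (122 CPM) and MKN-45 (65.2 CPM) and above BT-20 (1.42 CPM) and BT-474 (0 CPM), so it did not set the line apart. HNF4A was above all 15 other libraries, at 61.1, 66.8 and 62.1 CPM against at most 47.2 CPM, but its log2 difference from MKN-45 was 0.44 ± 0.12, under the fold limit. Of 16 intestinal differentiation genes tested, only CEACAM6 was apart, beside 2.27% of all genes lower and 3.48% higher. CEACAM6 had 2 counts in SW620 against 0.207 to 202 CPM (5.13-fold lower than in SW48, 95% counting interval 1.09 to 48.1, edgeR adjusted p = 0.026). That call was lost in DESeq2 (adjusted p = 0.06). In edgeR it was lost in the fit of 42 libraries (adjusted p = 0.053) and without SW48 control 2 (adjusted p = 0.071), SW48 control 3 (adjusted p = 0.073) or SW620 control 3 (adjusted p = 0.15).

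Receptor tyrosine kinases went both ways. Of 14 ERBB receptors and ligands tested, EGFR and ERBB2 were lower than in all lines and none was higher. The shares of all genes were 2.27% and 3.48%. EGFR had 1 count in the 3 SW620 libraries and 3.45 to 446 CPM elsewhere (194-fold lower than in BT-474, 95% counting interval 34.2 to 7701). ERBB2 was at 39.6, 40.1 and 53.3 CPM against 85.9 to 2192 CPM, and MKN-45 was nearest (log2 difference -1.01 ± 0.12, adjusted p = 8.4e-07). ERBB2 sits at the fold limit and falls under it with no low-count minimum (-0.958), in the fit of 42 libraries (-0.992) and without single libraries of SW620, BT-474 or MKN-45. ERBB3, the partner receptor, was at 141, 140 and 152 CPM, within the range of the other lines (55.5 to 269 CPM).

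Of 21 other receptor tyrosine kinases, FGFR1, AXL and NTRK2 were higher than in all lines and FGFR2, DDR1, EPHB4 and EPHA1 lower. Over all genes, these shares were 3.48% and 2.27%. FGFR1 was at 141 ± 16.5 CPM (SD, n = 3) against 0 to 61.6 CPM. FGFR2 had no count in SW620 and was at 0.956 to 27.2 CPM elsewhere, at least 11.3-fold lower than in BT-474 and at least 221-fold lower than in MKN-45. These fibroblast growth factor receptors therefore went in opposite directions. DDR1, a collagen receptor, was at 59.4 ± 4.93 CPM (SD, n = 3) against 151 to 435 CPM, and MET, the hepatocyte growth factor receptor, at 122, 116 and 112 CPM, far under the mean of 1245 CPM in MKN-45 and between the means of the breast lines (70.4 and 71.4 CPM) and those of SW48 and NCI-N87 (137 and 146 CPM).

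Of 23 transcripts that report MEK and ERK activity, SPRED3, an inhibitor of the cascade, was lower than in all lines and none was higher, near the 2.27% and 3.48% of all genes. The count of lower genes was 2 with DESeq2's size factors, in DESeq2 and without any 1 of the SW48 or BT-20 controls, SW620 control 1, NCI-N87 control 1 or 2 or BT-474 control 1, and it was 0 without NCI-N87 control 3. SPRED3 was at 0.103, 0.443 and 0.513 CPM against 0.561 to 5.95 CPM, and its call was lost without NCI-N87 control 3 (log2 difference -1.13, adjusted p = 0.095). DUSP6, the ERK phosphatase, was at 324, 323 and 291 CPM, near SW48 at a mean of 346 CPM.

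Notch pathway genes went both ways too. Of 21 tested, the receptors NOTCH2 and NOTCH3 and the targets HES1 and NRARP were lower than in all lines. The ligand DLL4, the modifier MFNG and HES6 were higher, beside 2.27% of all genes lower and 3.48% higher. NOTCH2 was at 0.310, 0.332 and 0.0855 CPM against 7.999 to 79.4 CPM (log2 difference from MKN-45 -5.34 ± 0.31, adjusted p = 2.8e-11). NOTCH3 had no count in SW620, which makes it at least 10.3-fold lower than in SW48 and at least 239-fold lower than in BT-474. NRARP, which turns over the Notch complex, was at 3.41, 4.21 and 5.48 CPM against 24.6 to 131 CPM, and HES1 at 111 ± 4.41 CPM (SD, n = 3) against 158 to 630 CPM.

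MFNG, the fringe glycosyltransferase that modifies Notch receptors, was at 172, 170 and 178 CPM against at most 15.2 CPM (log2 difference from NCI-N87 3.95 ± 0.20, adjusted p = 3.8e-12). HES6, an antagonist of HES1, was at 282 ± 17 CPM (SD, n = 3) against 10.8 to 100 CPM. DLL4 was low but distinct, at 6.46 ± 1.02 CPM (SD, n = 3) against at most 3.08 CPM.

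In the list of CDK inhibitors and D cyclins, 3 of 15 genes were higher than in all lines and 1 lower. Among all genes the shares were 3.48% and 2.27%. CDK6 was at 477, 571 and 550 CPM against 41.1 to 180 CPM (log2 difference from SW48 1.67 ± 0.10, adjusted p = 8.8e-11). CDKN2A and CDKN2B, neighbouring genes for the inhibitors p16 and p15, were at 383, 353 and 424 CPM (others 0 to 210 CPM) and at 30.4, 30.5 and 32.0 CPM (others 0 to 14.8 CPM). CDKN2A was at least 3077-fold higher than in BT-20, but only 1.05 ± 0.15 on the log2 scale above NCI-N87, and that value fell under the limit with DESeq2's size factors (0.962), in DESeq2 (0.963), without SW620 control 3 (0.987) and without NCI-N87 control 1 (0.858). CDKN1A, the p53 target p21, was at 0.827, 0.997 and 0.257 CPM against 6.78 to 276 CPM (log2 difference from BT-20 -3.66 ± 0.42, adjusted p = 3.1e-07). Among 23 p53 targets it was the only one apart, with 12 lower and 4 higher than the mean, beside 26.4% and 37.1% of all genes.

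Of 13 genes for DNA methylation and mismatch repair tested, 2 were higher and 1 lower than in all lines. The shares over all genes were 3.48% and 2.27%. TET1, an enzyme that oxidises methylcytosine, was at 48.8, 40.3 and 60.8 CPM against at most 7.63 CPM, and its relative TET2 was lower at 7.44, 4.99 and 9.58 CPM against 19.8 to 58.1 CPM.

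Patterning and neural genes were next. Of 32 HOX genes tested, HOXD9, HOXD10, HOXD11 and HOXC5 were higher than in all lines and none was lower. Over all genes, 3.48% were higher and 2.27% lower. HOXD9 was at 37.7, 35.7 and 46.7 CPM against at most 4.24 CPM, and HOXD11 at 10.0, 8.2 and 8.04 CPM against at most 1.03 CPM. HOXD10, at 3.72, 2.66 and 3.08 CPM, lost its call in DESeq2 (adjusted p = 0.57), and HOXC5 fell under the fold limit with DESeq2's size factors (0.983), in DESeq2 (0.988), without SW620 control 3 (0.977) and without MKN-45 control 2 (0.89). HOXD10 and HOXD11 passed the count minimum only through SW620.

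Of 17 neural and neuroendocrine genes tested, NES, GAP43 and CHGB were higher than in all lines, beside 3.48% of all genes. NES, the intermediate filament nestin, was at 101, 89.5 and 90.7 CPM against at most 19.5 CPM (log2 difference from MKN-45 2.60 ± 0.20, adjusted p = 6.0e-09), and GAP43, a growth cone protein, at 24.1, 25.2 and 20.9 CPM against at most 0.813 CPM. Of the list's members, 5 (CHGB, GAP43, SCG5, SYP and UCHL1) passed the minimum only through SW620.

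Among 25 glycolysis and lactate genes 1 was apart, and among 22 drug transport genes 1 in each direction, shares near the 3.48% and 2.27% of all genes. CA9, a carbonic anhydrase induced by hypoxia, was at 91.6, 83.9 and 89.7 CPM against at most 14.8 CPM. ABCB1, the drug efflux pump, was higher than in all lines at 17.9, 11.4 and 17.9 CPM against at most 1.37 CPM. DESeq2 did not make that call (adjusted p = 0.38), and ABCB1 passed the count minimum only through SW620. ABCC5, another efflux pump, was lower at 24.5, 18.7 and 19.4 CPM against 70.3 to 153 CPM. IFITM2, an interferon-induced membrane protein, was higher at 354, 323 and 343 CPM against at most 105 CPM. It was the only one of 29 interferon-stimulated genes apart, a share near the 3.48% of all genes.

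Members of other lists were apart singly or in pairs. ITGA3, the α3 integrin of laminin-binding epithelia, was at 4.24, 3.21 and 6.25 CPM against 23.3 to 215 CPM, and MMP15, a membrane-bound metalloproteinase, at 6.82, 7.09 and 7.87 CPM against 14.5 to 43.3 CPM. GRB10, an imprinted adaptor of the insulin receptor, was at 11.4, 11.9 and 9.58 CPM against 24.1 to 146 CPM. The cancer-testis antigen MAGEB2 was at 9.51, 9.31 and 10.3 CPM against at most 0.187 CPM, and it was the only one of 7 tested members of its list and passed the count minimum only through SW620. TFF2, a trefoil peptide of the stomach, was at 8.06, 12.5 and 5.56 CPM against at most 2.03 CPM. Together with SOX2 it made 2 of 12 stomach markers higher than in all lines, beside 3.48% of all genes. Against the mean of the lines 5 of the 12 were higher and 3 lower, near the 37.1% and 26.4% of all genes. The list's median was -0.88, so the list was not raised as a whole. PGC, a member of that list, passed the count minimum only through SW620. Of 24 genes of TGF-β and BMP feedback, TGFBI alone was apart, near the 3.48% of all genes. Against the mean, 13 were lower and 9 higher, beside 26.4% and 37.1% of all genes.

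Of the 34 lists, 7 had no member apart in either direction: keratins, MHC class I and antigen processing, G1/S and DNA replication, G2/M and mitosis, ATF4 and amino acid synthesis, cholesterol synthesis, and tubulin isotypes. In the G1/S list 21 of 29 genes were higher and 3 lower than the mean of the lines, with a median of 0.52 on the log2 scale, beside 37.1% higher and 26.4% lower over all genes. In the MHC class I list 12 of 17 were lower and 3 higher, with a median of -0.54. For lists of this size a count of 0 apart lies near the shares of all genes, 3.48% and 2.27%.

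**Figure D3:**
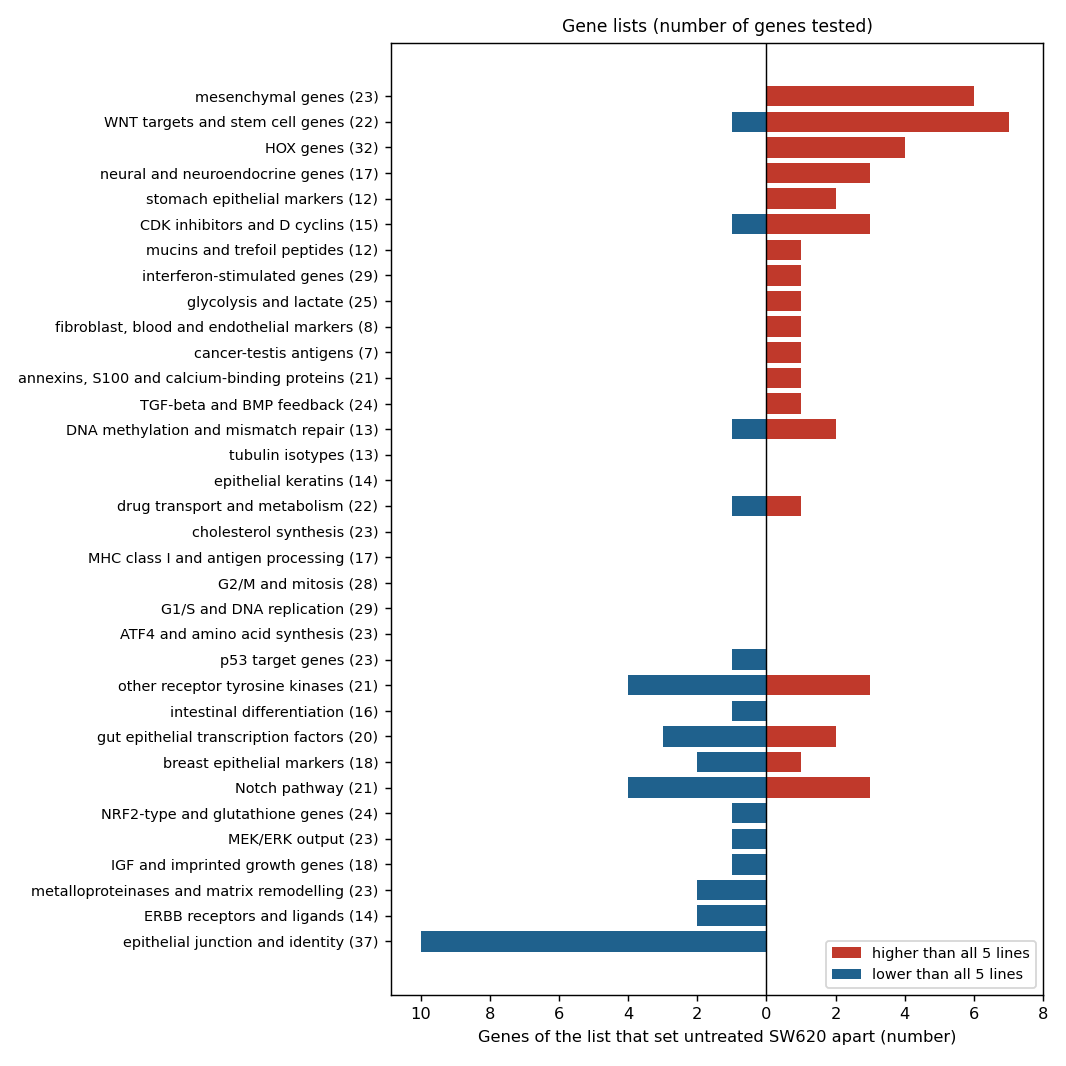
Number of genes in each list that were higher (to the right) or lower (to the left) in SW620 than in all 5 other lines; each bar is a count of genes. The epithelial list has the most genes on the lower side (10) and the WNT list the most on the higher side (7).

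By chromosome, the share of tested genes that were higher or lower than the mean of the lines varied around 37.1% and 26.4%. On the X chromosome 60% of 457 genes were higher and 12% lower, and 37 of them (8.1%) were higher than in all lines. On chromosome 11 the shares were 51.5% and 17.1%, on chromosome 20 50.5% and 18.8%, on chromosome 10 46.5% and 17.7%, where 5.22% were higher than in all lines, and on chromosome 13 45% and 22.5%, where 7.23% were higher than in all lines. Chromosome 18 had the opposite balance, with 18.5% of 178 genes higher and 46.6% lower and a median log2 difference of -0.44. These shares are a description, since genes of a chromosome are not independent. DNA copy number was not measured in these libraries.

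**Figure D4:**
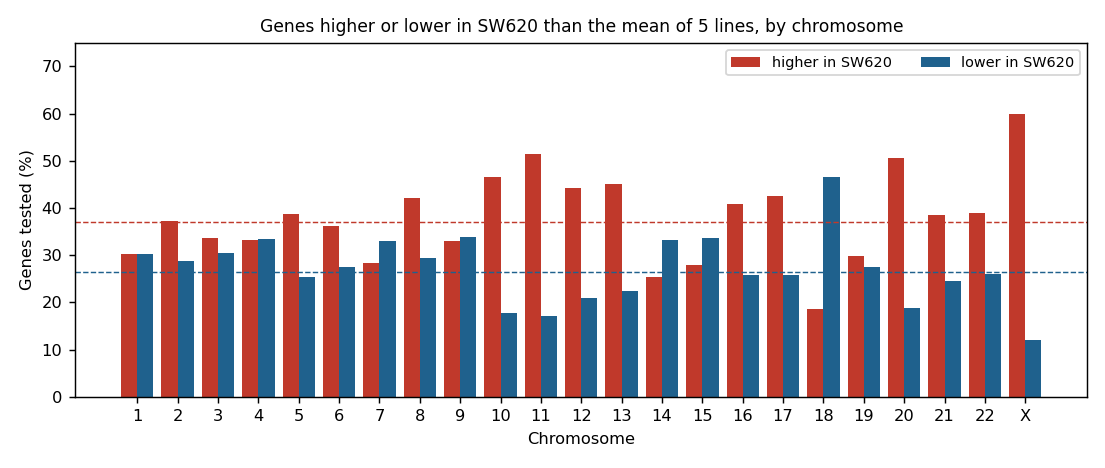
Percent of tested genes on each chromosome that were higher or lower in SW620 than the mean of the 5 other lines; dashed lines mark the shares over all genes, 37.1% and 26.4%. Chromosome X has the highest share of higher genes (60%) and chromosome 18 the highest share of lower genes (46.6%).

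Libraries that the rule did not use gave a check on the same genes. In treated cells, all 6 SW620 libraries (trametinib or palbociclib) lay above all 18 treated libraries of the other lines for 1092 of 15211 genes (7.18%) and below for 576 (3.79%). Among the 530 higher genes this held for 460 (86.8%), and among the 345 lower genes for 235 (68.1%). Of the 530, 187 passed the count minimum only through SW620 and were not counted apart here. Their low level in the other untreated lines was part of their selection, so for them this is a weak check. The same limit bears on the comparisons with SW48 below. The treated SW48 libraries had the same drugs as SW620, while the other 4 lines had afatinib. For those 4 lines, this sets SW620 against cells under another treatment.

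Against SW48 alone, trametinib-treated SW620 cells were higher for 4603 of 13534 genes (34.0%) and lower for 4246 (31.4%), and the same direction was called for 515 of the 523 higher genes tested there and 313 of the 323 lower. With palbociclib, 4724 of 13679 genes (34.5%) were higher and 4414 (32.3%) lower, and the direction matched for 506 of 517 higher and 310 of 325 lower genes, and 1 gene, PRSS23, was called in the opposite direction (0.39 ± 0.12 on the log2 scale, adjusted p = 0.011, beside -1.27 in the controls). In the controls of the first table, 2819 of 13324 genes (21.2%) were higher in SW620 than in SW48 and 2874 (21.6%) lower. Of the genes apart, 426 of 458 higher genes tested there were called in the same direction and 0 in the opposite one, and 305 of 338 lower genes, with 1 gene, TNFAIP2, in the opposite one (1.69 ± 0.18 on the log2 scale, adjusted p = 0.00056, beside -2.54 in the controls of the second table). PRSS23 and TNFAIP2 are named because of these values.

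The first table's SW620 controls did not lie together, and the libraries labelled SW48 differed between the tables. CEACAM6 was at 123 to 160 CPM in the SW48 controls of the first table and 0.207 to 0.405 CPM in those of the second, and ERBB2 at 957 to 1045 CPM and 90.4 to 103 CPM. The comparisons between the tables take these libraries as labelled, and whether they hold the same cells was not tested. In the 3 SW620 controls of the first table, VIM was at 146, 167 and 41.8 CPM and ZEB1 at 12.7, 11.9 and 2.84 CPM. SP5 was at 276, 265 and 27.9 CPM and CDH1 at 132, 119 and 55.8 CPM there, so control 3 stood apart for each. In the same SW620 controls further genes were read. FGF3 was at 53.7, 62.4 and 116 CPM and NKD1 at 688, 822 and 814 CPM, with the SW48 controls of the first table at 0 and 0.853 to 1.31 CPM. AP1M2 was at 6.95, 6.28 and 17.6 CPM against 194 to 217 CPM in those SW48 controls. Control 1 held 8.92% of the level of BT-474 marker genes (4.96% without PGR) and control 3 held 9.3% (3.1% without PGR) and 9.59% of that of MKN-45 marker genes (0.606% without AGR2), while control 2 stayed at 0.553% to 2.07%. The part of such reads in these values was not tested. Without control 1, 411 of 459 higher genes and 298 of 343 lower genes were called in the same direction in the first table, without control 3 it was 467 of 485 and 320 of 343, and without both 407 of 483 and 311 of 344, where the lone SW620 library is assumed to vary like the SW48 libraries. In each of these fits 1 lower gene and 0 higher genes were called in the opposite direction.

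The size of the SW620 to SW48 difference changed between the tables for 1200 of 14243 genes (8.43%). Among the genes apart, the difference was larger in the first table for 43 of the higher genes and smaller for 14, and larger for 15 and smaller for 26 of the lower genes. Over all genes the count rose to 3465 of 14737 (23.5%) without SW620 control 3 of the first table and to 2972 of 15605 (19%) without its controls 1 and 3, and it fell to between 633 and 718 without any 1 of the 6 SW48 and SW620 controls of the second table. Without both SW620 controls, the difference was larger for 57 and smaller for 30 of the higher genes, and larger for 35 and smaller for 51 of the lower genes. Another scaling moved the median of this comparison from -0.04 to -0.14 on the log2 scale, so single values should be read against that shift.

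**Figure D5:**
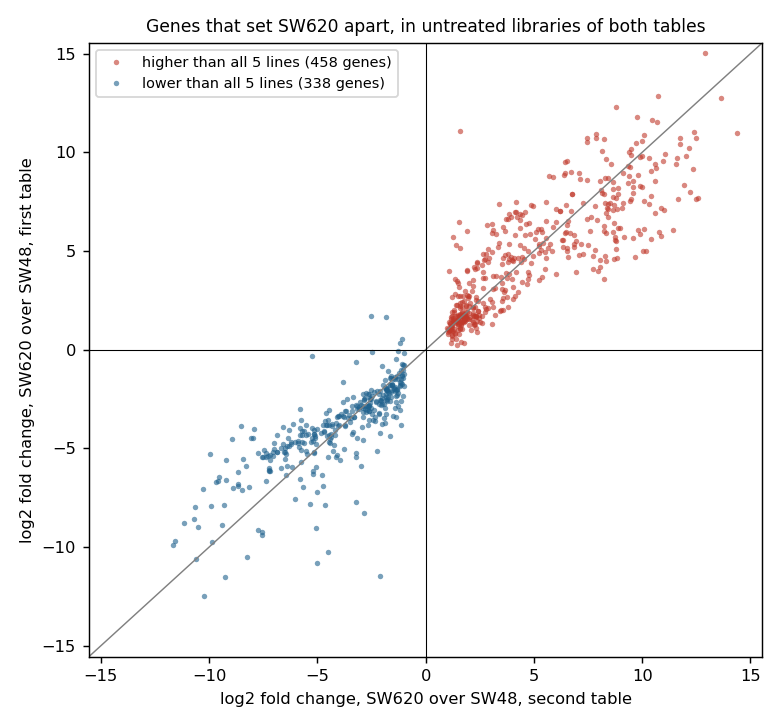
Log2 difference between SW620 and SW48 in the second table (horizontal axis) and in the first table (vertical axis) for the 458 higher and 338 lower genes tested in both; each point is a gene and the grey diagonal marks equal values. Nearly all points keep their side of 0.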

How the data were processed

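RNA of 6 carcinoma lines was read with 3′-end libraries (Lexogen QuantSeq) and deposited by the authors as raw counts per gene symbol in 2 tables, with no normalization per the file values. Trimmomatic, STAR, featureCounts and hg38 are named in the submitters' processing notes, and the sources used here give neither versions nor the annotation. The 12 libraries of the first table recur as copies in the second, and the copies were left out. Lines of the first table that name no gene held 39.7% to 73.8% of its reads and were left out of totals and tests. The members and gene lists were chosen with earlier results of these data known.

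Counts were tested with edgeR 4.0.16 in R 4.3.3: TMM scaling, filterByExpr with a minimum count of 10 and a total of 15, and quasi-likelihood tests in 1 fit of 18 untreated libraries, with Benjamini-Hochberg adjustment over 15211 genes. The comparisons with SW48 in treated cells and in the first table each had their own fit. Gaps are differences of mean log2 CPM with a prior count of 2. Folds against a group with no count use a floor of 3 counts over the group, and ratios on 1 to 3 counts carry 95% exact intervals. Named genes were the 20 widest gaps upward with at least 20 CPM in SW620, the 15 widest downward with at least 20 CPM in the lowest line, up to 4 per list by gap, and 20 chosen genes. Genes outside that rule are members of a list, lie at the fold limit or are said to be chosen on their values.

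Alternatives were DESeq2 1.42.0, its size factors, no count minimum, other fold limits, a fit of 42 libraries, a replicate block and leaving out each library. The scripts were tested on simulated data. Of the gene symbols, 26 had been turned into dates in the tables and were left as they are. Promoter windows come from RefSeq (GRCh38.p14), and 13358 of the tested genes matched its gene table. Library pairs differed by more than sampling noise (lowest chi-square per degree of freedom 2.84). Replicate numbers did not pair the libraries: of 45 correlations of same-numbered deviations, from -0.371 to 0.157, only 3 exceeded 0.1. A few genes of the lists and of the named genes are not reported here.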

Additional observations from a re-analysis of the deposited data

Results flagged for a closer look

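For 25 of 97 named genes tested in both tables, the log2 difference between untreated SW620 and untreated SW48 itself differed between the first and the second table (edgeR quasi-likelihood test of the interaction, adjusted p under 0.05). Over all genes this held for 1200 of 14243 (8.43%). Many of the named genes were picked for wide gaps in the second table, so these shares are not directly comparable. A smaller difference in the first table can follow from that choice, which was not tested. Each value below is the first table's difference minus the second's, and another scaling moves the median of this comparison by -0.102. Genes in which SW620 was above SW48 in both tables, by more in the first, were NES (4.10), S100A3 (4.56), LUM (3.70), SP5 (3.57), CDKN2A (3.18), NKD1 (3.11), AXL (2.18) and CDK6 (0.84). ERBB3 was above SW48 in both tables, by less in the first (-0.79). Genes in which SW620 was below SW48 in both tables, by less in the first, were FGFR2 (4.67), MAL2 (3.08), NDRG1 (2.75), AP1M2 (2.66), NFIB (2.57), NOTCH2 (2.34), CDH3 (1.95), C6orf132 (1.90), CDKN1A (1.82), TFAP2A (1.66) and NRARP (1.03). Genes in which SW620 was further below SW48 in the first table were CEACAM6 (-9.28), CDX2 (-3.14), ERBB2 (-2.55) and KLF4 (-1.22). MET changed sign between the tables (1.70), at 1.38 in the first and -0.23 in the second.

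CEACAM6 moved with the SW48 controls, which were at 123 to 160 CPM in the first table and 0.207 to 0.405 CPM in the second. ERBB2 moved with them too, at 957 to 1045 CPM in the first table and 90.4 to 103 CPM in the second. The difference takes the libraries labelled SW48 in both tables as 1 line, and whether they hold the same cells was not tested. Without SW620 control 3 of the first table all 25 passed the threshold, without control 1 21 did (not KLF4, FGFR2, CDKN1A or NRARP), and without both 22 did (not KLF4, FGFR2 or NRARP). All 25 kept their sign in these fits. Over 17 alternatives per gene, 16 of the 25 never lost the call and 9 did. NRARP lost it under 13 alternatives (adjusted p 0.054 to 0.12), KLF4 under 12 (0.052 to 0.22), FGFR2 under 11 (0.062 to 0.11), CDKN1A under 10 (0.062 to 0.089), SP5 under 9 (0.06 to 0.073) and NFIB under 8 (0.052 to 0.073). CEACAM6, CDK6 and ERBB3 lost it under 2 each (0.051 to 0.055).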

How the results depend on the processing

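No named gene's called difference changed sign under the alternatives run, but with DESeq2's size factors and in DESeq2 the lower genes outnumbered the higher ones against NCI-N87, BT-20, BT-474 and MKN-45. With no minimum fold, 1296 genes were higher and 754 lower than in all 5 lines, and with a limit of 2 on the log2 scale 278 and 201. The counts stayed within 1.5 times of 530 and 345 with DESeq2's size factors (502 and 362), no count minimum (591 and 328), DESeq2 (433 and 361), 42 libraries in the fit (584 and 340) and, added after seeing the data, robust dispersions (528 and 344). Leaving out each library in turn gave 517 to 550 higher and 335 to 371 lower genes, 8941 to 10094 genes against the mean, 8345 to 9662 against SW48, 9824 to 10663 against NCI-N87, 10298 to 11209 against BT-20, 9482 to 10616 against BT-474 and 8908 to 9975 against MKN-45.

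Against SW48 alone, leaving out a library gave 8024 to 9103 genes with trametinib, 8576 to 9026 with palbociclib and 4125 to 8053 in the first table. The difference between the tables was the least stable, with 633 to 3465 genes when a library was left out, 2228 in DESeq2 and, added after seeing the data, 2972 without SW620 controls 1 and 3 of the first table. The cause was not tested.

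The labels give replicate numbers in every line, but same-numbered libraries did not deviate together. With the replicate number as a block, 524 genes were higher and 341 lower, and 9483 differed from the mean. Of the named genes' values against the nearest line, 2209 kept their side of the threshold and 52 lost it. Against the mean, 3 of these values lost it, among them HOXD10 in DESeq2. Depth limits genes with a few counts in SW620, whose folds carry wide counting intervals.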
